A study of Mus musculus with 2 samples.

Results

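Among the spleen cells held back by magnetic beads against CD11c, 50 of 6393 cells carried the transcripts of natural killer (NK) cells. They were picked by their own counts of unique molecular identifiers (UMIs, each standing for 1 captured mRNA molecule). An NK cell had at least 2 UMIs of Ncr1 and Klrb1c together and at least 2 UMIs of Nkg7. It had no UMI of Cd3e or Clec9a, and fewer than 3 UMIs of Cd79a, fewer than 2 of Siglech and fewer than 3 of C1qb. This gave 22 of 3308 cells in replicate 1 and 28 of 3085 cells in replicate 2. The shares were 0.665% (exact Clopper-Pearson 95% interval 0.417 to 1.01) and 0.908% (0.604 to 1.31), whose intervals overlap and cover counting error only. NK cells were set against 49 and 189 T cells (at least 2 UMIs of Cd3e and at least 2 of Trac and Trbc2 together) and against the 3237 and 2868 cells that met neither rule, called all other cells here.

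NK cells are innate lymphocytes that kill infected or transformed cells by releasing perforin and granzymes, and that make interferon-γ and chemokines. Germline-encoded receptors, and not a rearranged antigen receptor, decide whether an NK cell fires: inhibitory receptors read MHC class I on the target, activating receptors read stress or viral ligands, and short adapter proteins pass the activating signal on. In the mouse spleen NK cells mature from a CD27-bearing to a CD11b-bearing stage under the T-box factors Eomes and T-bet. They also carry CD11c at their surface, and their XCL1 is the ligand of XCR1 on type 1 conventional dendritic cells.

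Both samples were CD11c-enriched splenocytes of wild-type mice, which the study keeps on the C57BL/6J background as adults of both sexes, with no treatment given in the labels. How many animals made up each sample was not given in the sources used here, so the p-values below measure the spread between these samples alone. That spread may be technical. Samples were marked with tags and captured in 1 single-cell run with whole-transcriptome 3′ libraries, and no cell index occurred in both tables. NK cells held a median of 7218.5 UMIs (3297 to 27303) and 2564.5 genes in replicate 1, and 6388 UMIs (2645 to 17021) and 2490.0 genes in replicate 2. T cells held medians of 5902 and 6421 UMIs and all other cells 12004 and 11698. Levels are given as CPM, the UMIs of a gene per 1000000 UMIs of all cells of that group in that sample, with replicate 1 before replicate 2. The NK sums rest on 213582 and 201709 UMIs, so 3 UMIs over both replicates, the limit that a count of 0 allows, correspond to 7.22 CPM in NK cells, 1.57 CPM in T cells and 0.0342 CPM in all other cells.

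The label was checked on the genes of the rule, which is a description since these genes chose the cells. Ncr1 encodes the activating receptor NKp46 (on GRCm38 at chr7:4337724-4345164, plus strand, GENCODE M21). It stood at 904 and 1091 CPM in NK cells, 0 and 11.8 CPM in T cells and 2.29 and 1.62 CPM in all other cells, and every NK cell of both replicates held a Ncr1 UMI. Klrb1c, the NK1.1 antigen of this strain, stood at 604 and 575 CPM and had a UMI in 22 of 22 and 26 of 28 NK cells. Nkg7, a protein of cytotoxic granules, was at 1358 and 1710.4 CPM against 161 and 286 CPM in T cells, so T cells are not free of it. All of these genes, and Cd3e, Trac, Trbc2, Cd79a, Clec9a, Siglech and C1qb, were kept out of the tests.

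Few cells lay near the limits on Ncr1, Klrb1c and Nkg7, but 9 and 13 cells that met these were turned away by the limits on other genes. Inside the rule, 0 and 1 cells had just 2 UMIs of Ncr1 and Klrb1c together, and 1 and 1 cells had just 2 UMIs of Nkg7. Outside it, 2 and 0 cells had 1 Nkg7 UMI with all other limits met, and their summed Gzma was 2859 CPM. The limit on Clec9a, a receptor of type 1 dendritic cells, alone turned away 8 and 5 cells, of which 6 and 3 had a single Clec9a UMI. In those cells Gzma stood at 3143 and 3098 CPM, close to the NK cells, and Klra8 at 42.1 and 1303 CPM. The limit on Cd3e alone turned away 0 and 4 cells, with Trac at 1053 CPM, Gzma at 124 CPM and Klra8 at 0. Among all other cells, 11 and 8 had at least 1 UMI of Ncr1 or Klrb1c and at least 1 of Nkg7. These few cells held 92.7% and 87.9% of the Gzma UMIs and 61.5% and 77.4% of the Klra8 UMIs of all other cells. Of 10 NK genes counted in this way, 9 had between 59.3% and 94.2% of their other-cell UMIs there, and Klra7 had 33.3% and 16.7%. Ncr1 and Klrb1c are among the 9, and their shares follow from the choice of these cells by those genes. For the rest of the 9 genes, the level in all other cells and the fold against it thus rest largely on these cells.

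Across 9522 genes tested by edgeR's quasi-likelihood test, 206 were higher (2.16% of the genes tested) and 205 lower (2.15%) in NK cells than in T cells at an adjusted p below 0.05. None of these 411 genes overlapped between the groups. In the comparison with all other cells, 903 genes were higher (9.48%) and 1176 lower (12.4%), and 2075 of these 2079 did not overlap. With so few sums a side, a gene that passes the test is nearly bound to show no overlap. The share without overlap over all genes tested is not given, so these counts add no support to the calls. Median log2 fold changes over all genes were −0.07 and −0.08. Since the cells were chosen for NK genes, other NK genes that go with them are not independent of that choice, and the counts of each list are read beside these shares. The count of 411 fell to 180 without NK replicate 1, 45 without NK replicate 2, 125 without T cell replicate 1 and 262 without T cell replicate 2. The count of 2079 fell to 1347, 1042, 1033 and 1143 without NK replicate 1, NK replicate 2, other-cell replicate 1 and other-cell replicate 2.

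**Figure D1:**
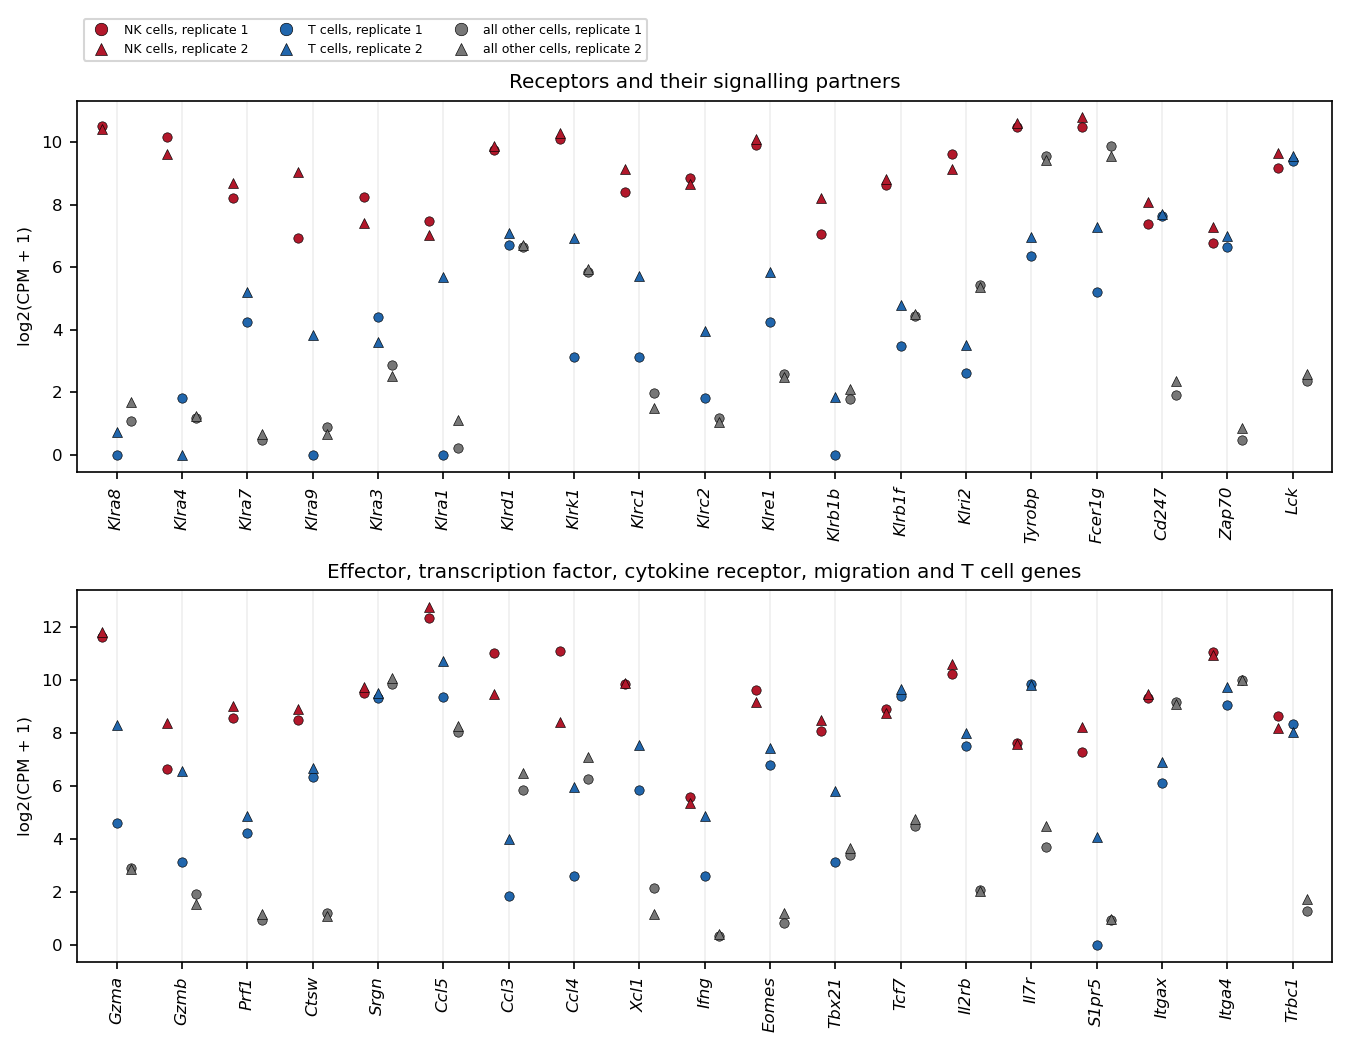
Levels of 38 genes as log2(CPM + 1) on the vertical axis, with the genes along the horizontal axis. Sums of NK cells are red, T cells blue and all other cells grey, with a circle for replicate 1 and a triangle for replicate 2. Klra8 and Klra4 lie high in both NK sums and at or near 0 in the others. Lck and Zap70 lie together in NK and T cells, and Itgax lies together in NK cells and all other cells.

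Ly49 receptor transcripts made up a far larger part of the UMIs of NK cells than of the UMIs of T cells or all other cells. These lectin-like receptors sit in a cluster on chromosome 6 and bind MHC class I or, in a few activating members, viral proteins. Of 10 members tested, 5 were higher than in T cells and none lower (Klra3, Klra4, Klra7, Klra8 and Klra9, median log2 fold change over the 10 members 3.69). Relative to all other cells, 8 were higher and 1 lower (median 8.69). The 5 became 3 without NK replicate 2 and 3 without T cell replicate 2. Summed over the 11 members, Ly49 transcripts came to 3609.9 and 3500.1 CPM in NK cells, 56.2 and 144 CPM in T cells and 57.3 and 53.7 CPM in all other cells.

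Klra8, which encodes Ly49H, the activating receptor for the m157 protein of mouse cytomegalovirus, is at chr6:130115226-130129898, minus strand. It stood at 1470.2 and 1378 CPM in NK cells, 0 and 0.657 CPM in T cells and 1.1 and 2.25 CPM in all other cells. T cells held 0 and 1 UMI of it, so that both NK sums lay far above both T cell sums. The gap was 2728-fold (counting interval 488 to 107937) on pooled UMIs, with a log2 fold change of 11.25 ± 0.59 (SE), edgeR adjusted p = 0.000336. A Klra8 UMI was found in 14 of 22 and 15 of 28 NK cells, 0 of 49 and 1 of 189 T cells and 16 of 3237 and 17 of 2868 other cells, which are the deeper ones. Thinned to 2000 UMIs a cell, the shares were 50.0% and 46.4% of NK cells and 0.125% and 0.211% of all other cells (unthinned 63.6% and 53.6% and 0.494% and 0.593%). The highest single NK cell gave 20.7% and 15.5% of the Klra8 UMIs, so the level was spread over cells.

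Klra4 encodes Ly49D, another activating receptor, which signals through DAP12 (chr6:130043731-130067271, minus strand). Its level was 1147 and 778 CPM in NK cells and 2.55 and 0 CPM in T cells, and it had a UMI in 13 of 22 and 13 of 28 NK cells. The gap to T cells was 1853-fold (counting interval 331 to 73353), with a log2 fold change of 10.67 ± 0.57 (SE), edgeR adjusted p = 0.000336. Both receptors were often found in the same cell: 10 and 11 NK cells held UMIs of both, 4 and 4 of Klra8 alone and 3 and 2 of Klra4 alone. Of the deposited transcript sequences in the reference, 14.4% of the 100-base stretches of Klra8 also occur in another gene, mostly the pseudogene Klra14-ps, and none of Klra4, so part of the Klra8 count could not be placed with certainty.

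The promoters of this pair are shown because many NK cells held both transcripts. Whether they occurred together more often than the share of cells with each would give was not tested. From 250 bases before to 50 bases after the start (RefSeq, GRCm38.p6), with the longest run common to both in capitals, they read:
Klra8 (chr6:130129849-130130148, minus strand): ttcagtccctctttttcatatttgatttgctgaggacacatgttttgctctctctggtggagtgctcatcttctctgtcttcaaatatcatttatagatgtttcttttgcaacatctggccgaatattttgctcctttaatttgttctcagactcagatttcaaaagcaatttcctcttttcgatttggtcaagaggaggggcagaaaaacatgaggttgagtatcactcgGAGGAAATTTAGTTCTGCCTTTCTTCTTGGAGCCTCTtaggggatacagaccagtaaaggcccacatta
Klra4 (chr6:130067222-130067521, minus strand): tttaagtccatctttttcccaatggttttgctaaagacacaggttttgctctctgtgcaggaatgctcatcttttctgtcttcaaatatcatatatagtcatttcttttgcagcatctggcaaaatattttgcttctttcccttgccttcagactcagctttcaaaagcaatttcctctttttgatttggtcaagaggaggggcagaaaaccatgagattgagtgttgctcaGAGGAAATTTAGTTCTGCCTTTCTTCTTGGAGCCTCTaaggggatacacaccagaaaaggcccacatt
Aligned without gaps, the windows were identical at 259 of 299 positions (86.6%), and the capitals mark a run of 37 bases.

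Among the inhibitory members, Klra3 (Ly49C), Klra9 (Ly49I) and Klra7 (Ly49G) were higher in NK cells than in T cells. Klra3 was at 304 and 169 CPM against 20.4 and 11.2 CPM in T cells (log2 fold change 4.0 ± 0.46 (SE), edgeR adjusted p = 0.00441), Klra7 at 295 and 416 against 17.9 and 36.1 CPM (3.37 ± 0.33 (SE), edgeR adjusted p = 0.00279). Klra9 was at 122 and 530.5 against 0 and 13.1 CPM (4.86 ± 0.82 (SE), edgeR adjusted p = 0.0175). The NK sums did not overlap the T cell sums for any of them, while Klra9 varied the most between the replicates. Klra1 (Ly49A) had 178 and 129 CPM in NK cells and 0 and 49.9 CPM in T cells and did not pass the test (log2 fold change 1.98, edgeR adjusted p = 0.283). A single NK cell per replicate gave 60.5% and 69.2% of its UMIs. Klra17, which encodes Ly49Q, had no UMI in NK cells and 13.5 and 16.5 CPM in all other cells, so that NK cells were lower by at least 2.06-fold (edgeR adjusted p = 0.0388, and 0.0533 with the replicate as a block). This call was lost without NK replicate 1 or 2 or T cell replicate 1, and Klra17 was not tested without any of the other sums.

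Counted without Klra2 and Klra17, single NK cells carried a median of 3 Ly49 genes in both replicates. The range was 0 to 7 in replicate 1 and 0 to 6 in replicate 2. No Ly49 UMI was found in 4 and 7 of the 22 and 28 NK cells. Of these, 4 and 6 held Klrc1, which encodes the inhibitory receptor NKG2A, against 10 and 10 of the 18 and 21 cells with a Ly49 UMI. These counts are a description of cells that differ in depth, and a missing UMI does not show a missing receptor. The cells may also differ in kind. Without a Ly49 UMI, 1 cell of replicate 1 held 36 Il7r and 4 Itga1 UMIs, and 1 of replicate 2 held 4 of each. Neither held an Eomes or Gzma UMI. In replicate 2, 1 cell with a Ly49 UMI held 22 Il7r UMIs and no Eomes UMI. How much such cells add to the Klrc1 counts was not tested.

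**Figure D2:**
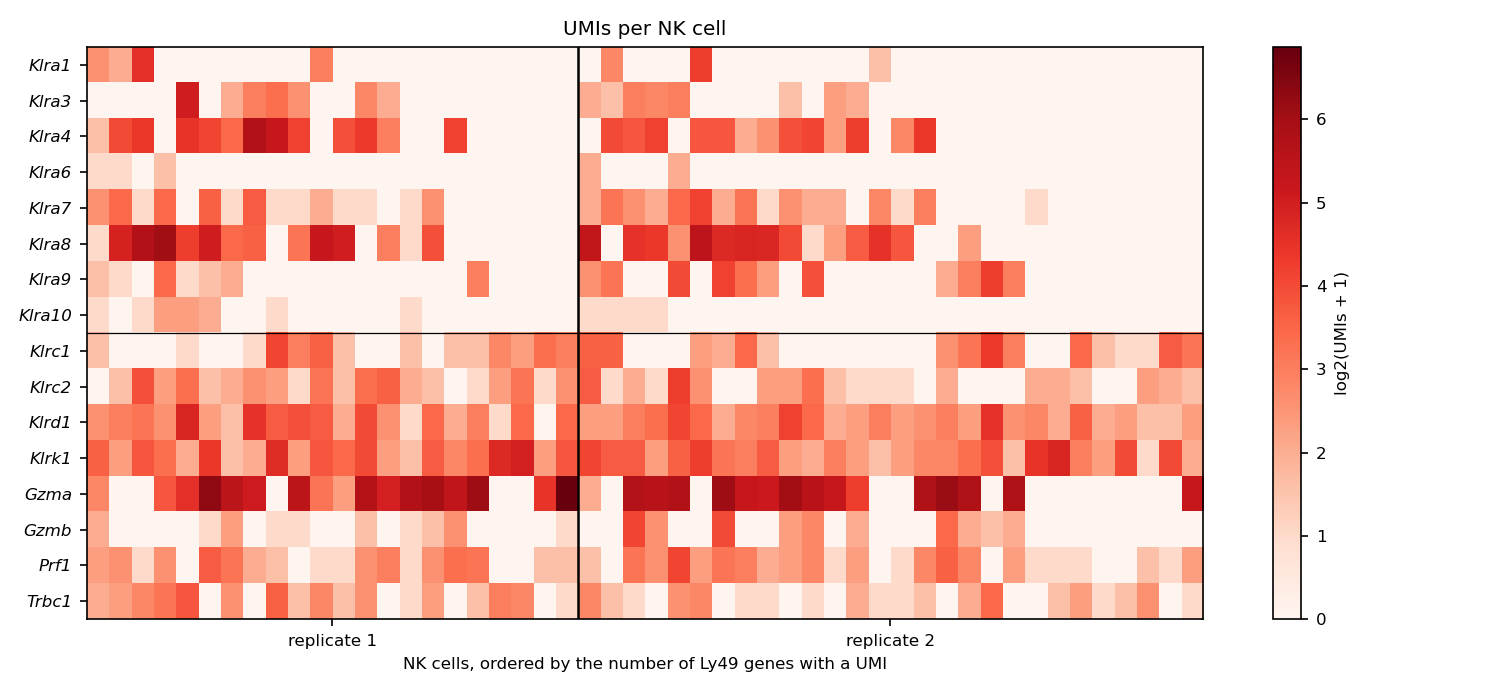
UMIs of 16 genes in each of the 50 NK cells, coloured as log2(UMIs + 1), with 1 column per cell, the 22 cells of replicate 1 beside the 28 of replicate 2, ordered within a replicate by the number of Ly49 genes found. Klra8 and Klra4 fill many of the same columns, and the Ly49-poor columns of both replicates mostly hold Klrc1.

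The NKG2, CD94 and NKR-P1 lectins moved in the same direction. Of 12 members tested, 9 were higher than in T cells and none lower (median log2 fold change 4.08), and 11 were higher than in all other cells (median 6.59). The 9 became 6 without NK replicate 2. Klrd1, the CD94 partner of the NKG2 proteins, was found in 21 of 22 and 28 of 28 NK cells and stood at 857 and 937 CPM in NK cells, 105 and 135 CPM in T cells and 98.8 and 104 CPM in all other cells (against T cells log2 fold change 2.71 ± 0.19 (SE), edgeR adjusted p = 0.000985). Both NK values lay above all the others. Klrk1, which encodes NKG2D, the receptor for stress ligands, had a UMI in every NK cell and stood at 1105 and 1259 CPM against 7.66 and 121 CPM in T cells, whose replicates differed widely (log2 fold change 3.74 ± 0.60 (SE), edgeR adjusted p = 0.015).

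Klrc1 and Klrc2, for the inhibitory NKG2A and the activating NKG2C, were at 337 and 565 CPM and 459 and 407 CPM in NK cells, and T cells at 7.66 and 51.9 CPM and 2.55 and 14.5 CPM. Their log2 fold changes were 3.37 ± 0.51 (SE), edgeR adjusted p = 0.0123, and 5.07 ± 0.36 (SE), edgeR adjusted p = 0.00105. These genes have 14.6% and 7.09% of their 100-base stretches in common with another gene, mainly with each other. The Klre1 protein pairs with that of Klri2 or of Klri1 into receptors of either sign. Klre1 stood at 950.5 and 1101 CPM against 17.9 and 56.5 CPM in T cells (4.38 ± 0.34 (SE), edgeR adjusted p = 0.00128). Klri2 was at 787 and 560.2 against 5.1 and 10.5 CPM (6.04 ± 0.31 (SE), edgeR adjusted p = 0.000336), without overlap. Klri1 was at 79.6 and 14.9 CPM in NK cells and 38.3 and 35.5 CPM in T cells (log2 fold change 0.26, edgeR adjusted p = 0.833) and did not pass the test, as also Klrc3 and Klrg1 (adjusted p = 0.0582 and 0.0538). With the replicate as a block, Klrg1 passed (edgeR adjusted p = 0.0149).

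Klrb1a, an NKR-P1 receptor at chr6:128609227-128623533, minus strand, was found in NK cells and in no T cell. It stood at 197 and 193 CPM in NK cells with 42 and 39 UMIs and had no UMI in 238 T cells, so it was at least 124-fold higher against the floor over both T cell sums (edgeR adjusted p = 0.00145). It was spread over 18 of 22 and 14 of 28 NK cells. The inhibitory Klrb1b was at 131 and 297 CPM against 0 and 2.63 CPM, and Klrb1f at 393 and 451 CPM against 10.2 and 26.9 CPM, with log2 fold changes of 6.54 ± 0.71 (SE), edgeR adjusted p = 0.00396, and 4.08 ± 0.29 (SE), edgeR adjusted p = 0.00109. All 3 NKR-P1 genes were thus higher in both NK sums than in both T cell sums, but Klrb1b overlaps the annotated Gm44511 on its own strand, with which it may exchange reads.

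**Figure D3:**
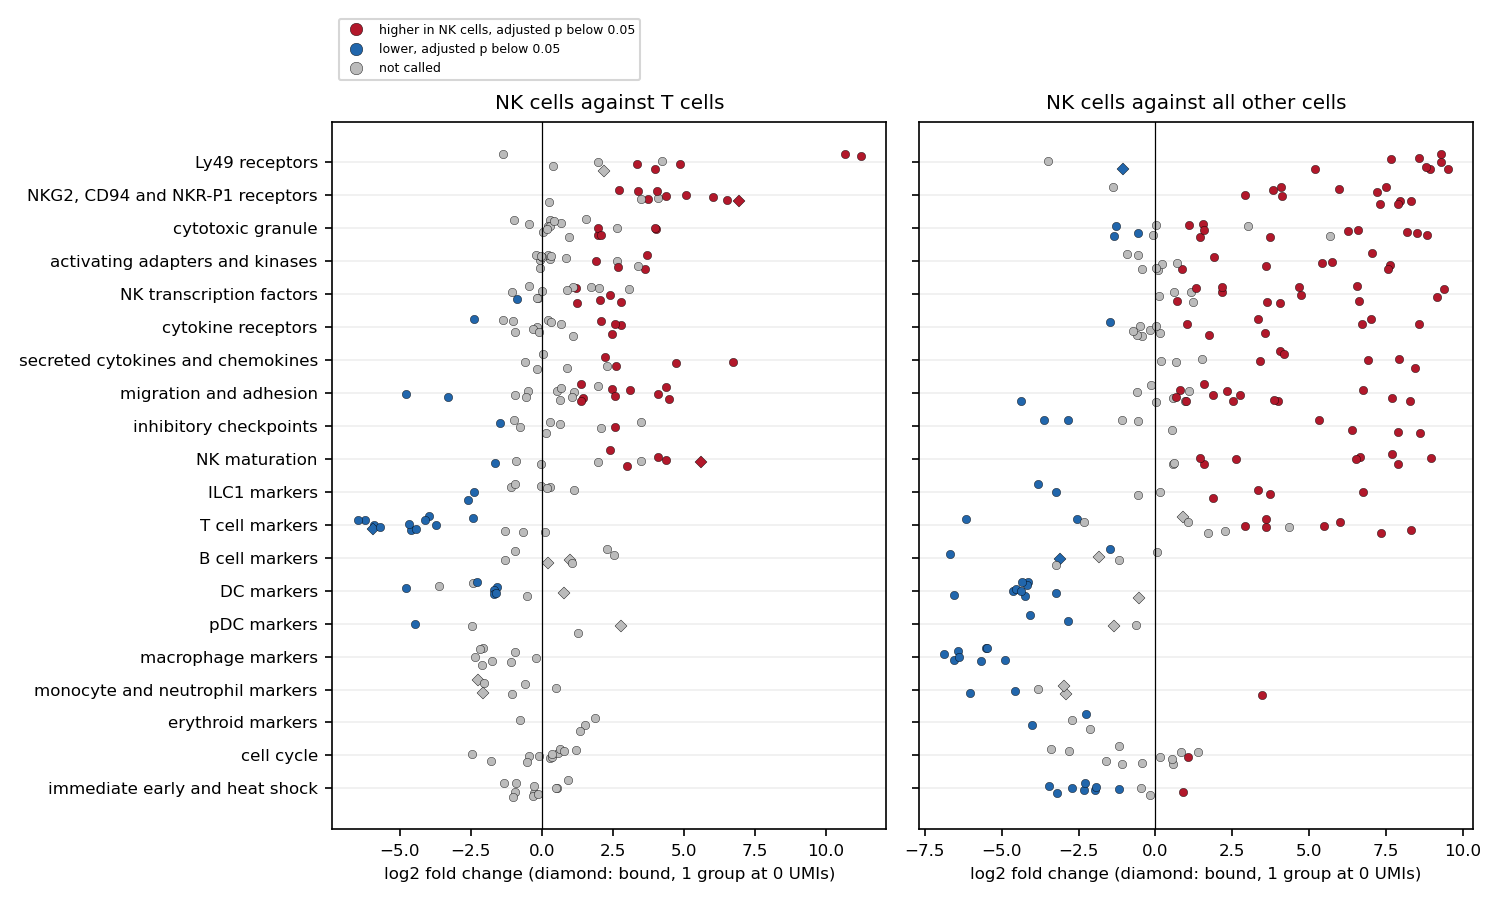
Log2 fold change of every tested gene of each list, NK cells against T cells on the left and against all other cells on the right, 1 point per gene. Red and blue mark genes higher and lower in NK cells at an adjusted p below 0.05, grey marks the rest, and a diamond stands for a gene with no UMI on 1 side, placed at its bound. Receptor lists lie mostly to the right in both panels, and T cell markers lie to the left in the left panel only.

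Below the receptors, some signalling genes were higher in NK cells than in T cells, some were higher than in all other cells, and others in both comparisons or neither. Of 15 adapters and kinases tested, 4 were higher than in T cells and none lower (Tyrobp, Fcer1g, Syk and Plcg2, median log2 fold change over the list 0.33). Set against all other cells, 8 were higher (median 0.85). The 4 became 2 without either NK replicate. Tyrobp, which encodes DAP12, the adapter of Ly49H and Ly49D, had 1414 and 1572 CPM in NK cells and 81.7 and 123 CPM in T cells, a log2 fold change of 3.65 ± 0.21 (SE), edgeR adjusted p = 0.000418. Fcer1g, the adapter of the Fc receptor and of NKp46, had 1437 and 1765 CPM against 35.7 and 156 CPM (3.72 ± 0.46 (SE), edgeR adjusted p = 0.0066). Both adapters were also plentiful in all other cells (744 and 679 and 942 and 755 CPM). Tyrobp was lower there than in NK cells (log2 fold change NK against other 0.85, edgeR adjusted p = 0.0136), and Fcer1g did not pass (edgeR adjusted p = 0.26).

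Syk and Plcg2, the kinase and phospholipase downstream of these adapters, were at 178 and 198 CPM and 206 and 233 CPM in NK cells and 17.9 and 57.2 CPM and 33.2 and 29.6 CPM in T cells (log2 fold changes 1.91 and 2.70, edgeR adjusted p = 0.0338 and 0.00145). The opposite set was that of the T cell receptor pathway. Lck stood at 581 and 803 CPM in NK cells, 669 and 749 CPM in T cells and 4.1 and 4.97 CPM in all other cells. Zap70 stood at 108 and 154 CPM in NK cells, 99.5 and 125 CPM in T cells and 0.388 and 0.797 CPM in all other cells, and Cd247, the ζ chain, at 164 and 273 CPM in NK cells, 197 and 206 CPM in T cells and 2.74 and 4.18 CPM in all other cells. All 3 overlapped between NK and T cells and lay far above all other cells. Against T cells their log2 fold changes were −0.19, 0.02 and −0.04 (edgeR adjusted p = 0.651, 0.989 and 0.955). Against all other cells they were 7.03, 7.56 and 5.75 (edgeR adjusted p = 6.92e-06, 6.54e-05 and 6.54e-05). Hcst, which encodes the NKG2D adapter DAP10, was at 262 and 174 CPM in NK cells and 138 and 173 CPM in T cells (log2 fold change 0.31, edgeR adjusted p = 0.534). It was lower in all other cells, at 16.0 and 15.1 CPM (edgeR adjusted p = 0.000108).

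The killing machinery was carried by a few of its genes. Of 17 granule genes tested, 5 were higher than in T cells and none lower (Gzma, Prf1, Ctsw, Serpinb9 and Serpinb6b, median log2 fold change over the list 0.67). In the comparison with all other cells, 10 were higher and 3 lower (Srgn, Ctsc and Lamp1, median 1.59). The 5 became 2, 1, 3 and 3 without NK replicate 1, NK replicate 2, T cell replicate 1 and T cell replicate 2. The 10 became 5, 6 and 6 without NK replicate 1, NK replicate 2 and other-cell replicate 1, and the 3 lower became 1 without NK replicate 1 or other-cell replicate 1. Gzma, which encodes the protease granzyme A, stood at 3207 and 3584 CPM in NK cells, 23.0 and 311 CPM in T cells and 6.52 and 6.21 CPM in all other cells. It was higher in both NK sums than in both T cell sums, which themselves differed widely (log2 fold change 4.02 ± 0.71 (SE), edgeR adjusted p = 0.0209), and a Gzma UMI was found in 17 of 22 and 16 of 28 NK cells, against 26 of 3237 and 23 of 2868 other cells.

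Prf1, for perforin, stood at 379 and 526 CPM in NK cells, 17.9 and 28.3 CPM in T cells and 0.885 and 1.26 CPM in all other cells, with log2 fold changes of 4.0 ± 0.31 (SE), edgeR adjusted p = 0.00128, and 8.50 ± 0.30 (SE), edgeR adjusted p = 6.92e-06. Gzmb, for granzyme B, varied more. Its 98.3 and 332 CPM in NK cells against 7.66 and 93.3 CPM in T cells did not pass the test (log2 fold change 1.55, edgeR adjusted p = 0.301). It was higher than in all other cells (log2 fold change 6.27, edgeR adjusted p = 0.0016). Ctsw, a protease of killer cells, was at 356 and 481 CPM against 79.1 and 102 CPM in T cells (edgeR adjusted p = 0.00403). Serpinb9 and Serpinb6b, inhibitors that shield the killer from its own proteases, were at 309 and 258 CPM and 253 and 317 CPM against 94.4 and 51.2 CPM and 76.6 and 53.9 CPM (edgeR adjusted p = 0.0198 and 0.0117). These NK and T cell sums did not overlap for any of the 5 genes that passed. Gzmc had no UMI in NK cells, and Gzmk and Gzmm had 23.4 and 0 CPM and 18.7 and 0 CPM.

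Promoters of the receptor gene that defines the cells and of the 2 effector genes are shown for the RUNX core letters TGTGGT, searched on both strands (ACCACA on the printed one) and set in capitals, since Runx3 was among the factors higher than in T cells. Each runs from 250 bases before to 50 bases after the start (RefSeq, GRCm38.p6):
Ncr1 (chr7:4337465-4337764, plus strand): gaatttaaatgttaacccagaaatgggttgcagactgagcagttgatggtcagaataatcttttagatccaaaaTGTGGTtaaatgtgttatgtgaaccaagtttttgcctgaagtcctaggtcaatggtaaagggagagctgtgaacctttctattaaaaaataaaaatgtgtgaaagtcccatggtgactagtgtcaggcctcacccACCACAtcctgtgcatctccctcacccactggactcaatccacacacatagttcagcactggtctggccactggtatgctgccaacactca
Gzma (chr13:113100932-113101231, minus strand): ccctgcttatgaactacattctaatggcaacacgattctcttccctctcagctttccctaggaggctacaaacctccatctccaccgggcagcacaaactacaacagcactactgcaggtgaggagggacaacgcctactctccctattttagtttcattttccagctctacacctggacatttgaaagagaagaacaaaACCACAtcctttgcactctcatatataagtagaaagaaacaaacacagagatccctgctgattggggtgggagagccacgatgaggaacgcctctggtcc
Prf1 (chr10:61297586-61297885, plus strand): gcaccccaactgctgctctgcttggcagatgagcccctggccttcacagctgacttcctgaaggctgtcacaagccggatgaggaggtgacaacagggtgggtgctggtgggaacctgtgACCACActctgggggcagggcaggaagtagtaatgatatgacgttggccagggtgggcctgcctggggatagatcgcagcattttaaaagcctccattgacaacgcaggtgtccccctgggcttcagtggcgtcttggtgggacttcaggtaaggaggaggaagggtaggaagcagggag
These letters were held by 16.9% of all 27025 promoters, by 12.5% of the 7556 promoters found for the 9522 genes tested and by 37 of the 160 (23.1%) found for the 206 genes higher than in T cells. For genes lower than in T cells the share was 12.5%, and for genes higher than in all other cells 17.1%. The RUNX letters occurred in 8 of 16 granule promoters and 6 of 10 NKG2, CD94 and NKR-P1 promoters, but in 1 of 11 Ly49 promoters, that of Klra1. The T-box letters GGTGTG, which can share bases with a RUNX match, were in 19.0% of all promoters and 18.8% of those of genes higher than in T cells (20.1% for genes lower), and in 8 of 16 granule and 2 of 10 NKG2, CD94 and NKR-P1 promoters. The ETS letters AGGAAG were in 35.1% and 39.4% (47.9% for genes lower), and in 11 of 16 granule and 4 of 10 NKG2, CD94 and NKR-P1 promoters. These shares were not tested, and a match of letters is no evidence of binding.

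The transcription factors higher in NK cells included both T-box factors, Eomes and Tbx21. Of 16 factors tested, 5 were higher than in T cells (Eomes, Tbx21, Id2, Zeb2 and Runx3) and 1 lower (Tcf7), with a median log2 fold change of 1.15. Relative to all other cells, 12 were higher and none lower (median 2.91). Without NK replicate 1, NK replicate 2 and T cell replicate 1 the 5 became 1, 0 and 3, and Tcf7 was not called when any 1 sum was left out. The 12 became 7 without NK replicate 2 and 7 without other-cell replicate 1. Eomes stood at 787 and 570.1 CPM in NK cells, 109.8 and 173 CPM in T cells and 0.755 and 1.3 CPM in all other cells (against T cells log2 fold change 2.05 ± 0.30 (SE), edgeR adjusted p = 0.011). Tbx21, which encodes T-bet, stood at 267 and 362 CPM in NK cells and 7.66 and 55.2 CPM in T cells (2.79 ± 0.49 (SE), edgeR adjusted p = 0.0198). Both factors were above T cells in both replicates, and UMIs of both were found together in 16 and 14 of the 22 and 28 NK cells, with neither found in 1 and 2.

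Zeb2, which T-bet works with in late maturation, was at 379 and 521 CPM against 61.3 and 84.8 CPM in T cells (2.41 ± 0.25 (SE), edgeR adjusted p = 0.00352). Runx3 was at 454 and 451 against 156 and 181 CPM (1.26 ± 0.18 (SE), edgeR adjusted p = 0.0103). Id2, a repressor that all innate lymphoid cells need, was at 941 and 1061 CPM against 449 and 348 CPM in T cells (1.19 ± 0.18 (SE), edgeR adjusted p = 0.0129). It was at 789 and 789 CPM in all other cells and did not pass there (edgeR adjusted p = 0.672). Tcf7, the factor TCF1 of early NK cells and naive T cells, was at 482 and 436 CPM in NK cells and 676 and 819 CPM in T cells, lower by a narrow margin (log2 fold change −0.86 ± 0.19 (SE), edgeR adjusted p = 0.048, and 0.0564 with the replicate as a block), and well above the 21.4 and 26.0 CPM of all other cells. Gata3 and Ets1 lay close to T cells (log2 fold changes −0.15 and 0.02, edgeR adjusted p = 0.848 and 0.989). Ikzf3 did not pass against T cells (log2 fold change 0.91, edgeR adjusted p = 0.295). Gata3, Ets1 and Ikzf3 were all above all other cells. Tox did not pass against T cells, with 403 and 491 CPM against 191 and 183 CPM (edgeR adjusted p = 0.0601).

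Receptors for the cytokines that sustain NK cells followed. Of 15 tested, 4 were higher than in T cells (Il2rb, Il12rb2, Il18rap and Kit) and 1 lower (Il7r), with a median log2 fold change of 0.21. Set against all other cells, 7 were higher and 1 lower (Il10ra, median 0.15). The 4 became 2, 1 and 1 without NK replicate 1, NK replicate 2 and T cell replicate 1, and Il7r was called in none of these. Il10ra was not called without NK replicate 1 or NK replicate 2. Il2rb, the chain through which interleukin-15 and interleukin-2 signal, was found in every NK cell and stood at 1208 and 1557 CPM in NK cells, 181 and 256 CPM in T cells and 3.15 and 3.09 CPM in all other cells (against T cells 2.48 ± 0.21 (SE), edgeR adjusted p = 0.00148). Its partner Il2rg was at 482 and 615 CPM in NK cells and 505 and 598 CPM in T cells and did not pass (edgeR adjusted p = 0.658). The 2 groups overlapped for the common γ chain and not for the β chain.

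Il18rap and Il12rb2 belong to the receptors for interleukin-18 and interleukin-12, the pair of dendritic cell cytokines that drive interferon-γ. Il18rap was at 248 and 486 CPM in NK cells and 15.3 and 74.2 CPM in T cells (2.57 ± 0.51 (SE), edgeR adjusted p = 0.0329). Il12rb2 was at 122 and 238 CPM and 7.66 and 28.9 CPM (2.79 ± 0.46 (SE), edgeR adjusted p = 0.0164). Il18r1 had 173 and 421 CPM in NK cells and 109.8 and 133 CPM in T cells and did not pass (edgeR adjusted p = 0.149), although it was higher than in all other cells (log2 fold change 7.02, edgeR adjusted p = 5.57e-05). Il7r was at 197 and 193 CPM against 921 and 903 CPM in T cells (−2.38 ± 0.32 (SE), edgeR adjusted p = 0.0088). Its NK UMIs came from 3 and 7 cells, with 85.7% and 56.4% from 1 cell in each replicate.

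The secreted products were chemokines more than cytokines. Of 9 tested, 4 were higher than in T cells (Ccl3, Ccl4, Ccl5 and Xcl1, median log2 fold change over the list 2.22). In the comparison with all other cells, 6 were higher (those 4, Ifng and Csf2, median 4.05), and none was lower in either comparison. The 4 became 1 without NK replicate 1, NK replicate 2 or T cell replicate 1, and the 6 became 4 without other-cell replicate 1. Xcl1, the lymphotactin sensed by XCR1 dendritic cells, stood at 913 and 957 CPM in NK cells, 56.2 and 189 CPM in T cells and 3.37 and 1.23 CPM in all other cells (2.63 ± 0.52 (SE), edgeR adjusted p = 0.0344 against T cells). It was found in 15 of 22 and 18 of 28 NK cells, and both NK sums lay above both T cell sums. Ccl5 was found in every NK cell, at 5281 and 6901 CPM against 656 and 1674 CPM in T cells (2.22 ± 0.37 (SE), edgeR adjusted p = 0.0169).

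Ccl3 and Ccl4, chemokines that draw other leukocytes, were uneven. Ccl3 stood at 2093 and 704 CPM and Ccl4 at 2196 and 342 CPM in NK cells, so that replicate 1 held several times the level of replicate 2. A single cell per replicate gave 35.6% and 26.8% of the Ccl3 UMIs and 31.3% and 24.6% of the Ccl4 UMIs. T cells stood at 2.55 and 15.1 CPM and 5.1 and 61.8 CPM, below both NK sums (6.73 ± 0.71 (SE), edgeR adjusted p = 0.0036, and 4.72 ± 0.96 (SE), edgeR adjusted p = 0.0362). Ifng itself was low, at 46.8 and 39.7 CPM in NK cells with a UMI in 4 of 22 and 5 of 28 cells, against 5.1 and 28.3 CPM in T cells (edgeR adjusted p = 0.519) and 0.259 and 0.338 CPM in all other cells (edgeR adjusted p = 0.0013). Tnf, Ltb and Flt3l did not pass in either comparison (edgeR adjusted p = 0.992, 0.301 and 0.875 against T cells).

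Homing and adhesion genes included the one used to enrich the cells. Of 20 tested, 9 were higher than in T cells (among them S1pr5, Ccr2, Itgam, Itgax, Itga2, Itga4, Itgal and Itgb2) and 2 lower (S1pr1 and Ccr7), with a median log2 fold change of 1.26. Relative to all other cells, 13 were higher and 1 lower (median 1.33). The 9 became 2 without NK replicate 2, and the 13 became 6 without NK replicate 2 and 8 without other-cell replicate 2. The 2 lower than in T cells became 0 without NK replicate 1 or 2 or T cell replicate 1 or 2, and the 1 lower than in all other cells became 0 without NK replicate 1 or 2 or T cell replicate 1. Itgax, which encodes CD11c, stood at 637 and 709 CPM in NK cells, 68.9 and 119.6 CPM in T cells and 577 and 551 CPM in all other cells. It was higher in NK cells than in T cells (log2 fold change 2.60 ± 0.24 (SE), edgeR adjusted p = 0.00221), while NK cells and all other cells differed little (log2 fold change 0.03 ± 0.21 (SE), edgeR adjusted p = 0.936). An Itgax UMI was found in 19 of 22 and 25 of 28 NK cells and 6 of 49 and 39 of 189 T cells, and thinned to 2000 UMIs in 63.6% and 64.3% and 4.08% and 7.94% (unthinned 86.4% and 89.3% and 12.2% and 20.6%).

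Itga2, which encodes the NK antigen CD49b (DX5), stood at 276 and 402 CPM in NK cells, 5.1 and 16.4 CPM in T cells and 0.971 and 0.869 CPM in all other cells (4.48 ± 0.37 (SE), edgeR adjusted p = 0.00145 against T cells). Itga4, the α chain of the VCAM1 receptor, was at 2116 and 1963 CPM in NK cells, 531 and 852 CPM in T cells and 1018 and 1018 CPM in all other cells. Both NK sums were above all others, with log2 fold changes of 1.39 ± 0.21 (SE), edgeR adjusted p = 0.012, and 0.78 ± 0.20 (SE), edgeR adjusted p = 0.03. Itgal and Itgb2, the chains of LFA-1, were at 824 and 937 CPM and 1030.0 and 1279 CPM against 235 and 327 CPM and 332 and 447 CPM in T cells (edgeR adjusted p = 0.00851 and 0.00929). Itgb1 did not pass in either comparison (edgeR adjusted p = 0.159 and 0.0931).

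Among the receptors for egress and chemokines, S1pr5 stood at 155 and 297 CPM in NK cells against 0 and 15.8 CPM in T cells (4.10 ± 0.59 (SE), edgeR adjusted p = 0.011). S1pr1, which T cells use to leave lymphoid tissue, was at 46.8 and 14.9 CPM against 268 and 288 CPM (−3.31 ± 0.70 (SE), edgeR adjusted p = 0.0433). The 2 sphingosine receptors thus ran in opposite directions. Ccr2 was at 562 and 486 CPM against 68.9 and 94.6 CPM in T cells (2.47 ± 0.21 (SE), edgeR adjusted p = 0.00145). Ccr7, the receptor that leads cells into the T zone, had 0 and 9.92 CPM in NK cells against 115 and 121 CPM in T cells and 59.8 and 112 CPM in all other cells (−4.77 ± 0.99 (SE), edgeR adjusted p = 0.04). Cxcr3, Cxcr4 and Cxcr6 did not pass against T cells (edgeR adjusted p = 0.414, 0.453 and 0.551).

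Inhibitory checkpoint genes were few. Of 9 tested, 1 was higher (Cd160) and 1 lower (Ctla4) than in T cells, with a median log2 fold change of 0.30, and 4 were higher and 2 lower than in all other cells (median 0.53). Neither call against T cells was made without NK replicate 1, NK replicate 2 or T cell replicate 1. Cd160 stood at 286 and 456 CPM against 12.8 and 76.2 CPM in T cells (2.57 ± 0.49 (SE), edgeR adjusted p = 0.0292). Ctla4 was at 70.2 and 74.4 against 191 and 173 CPM (−1.47 ± 0.24 (SE), edgeR adjusted p = 0.0155). Pdcd1 had no UMI in NK cells. Tigit, Cd96 and Lag3 did not pass against T cells (edgeR adjusted p = 0.86, 0.798 and 0.0975).

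Among all genes named by size of change against T cells, several lay outside the lists. Eya1, a phosphatase and transcriptional coactivator, stood at 79.6 and 79.3 CPM in NK cells with no T cell UMI, at least 50.7-fold higher (edgeR adjusted p = 0.00441). A single cell per replicate held 47.1% and 50.0% of its UMIs. Cma1, a chymase better known from mast cells, had 51.5 and 104 CPM, no T cell UMI and was at least 49.2-fold higher (edgeR adjusted p = 0.0107), from 5 of 22 and 5 of 28 cells. Both are thus calls from few cells. Adamts14, a secreted metalloprotease, stood at 131 and 307 CPM against 0 and 1.31 CPM in T cells, 207-fold (counting interval 55.8 to 1739) on pooled UMIs. Styk1, a kinase-like protein of NK cells, was at 79.6 and 114 CPM against 0 and 0.657 CPM, 184-fold (counting interval 31.2 to 7461). Car2, a carbonic anhydrase, was at 702 and 521 CPM against 10.2 and 4.6 CPM in T cells (log2 fold change 6.57 ± 0.49 (SE), edgeR adjusted p = 0.00127). Tnfsf12, for the cytokine TWEAK, was at 51.5 and 129 CPM against 0 and 1.31 CPM (85.3-fold (counting interval 22 to 730.2)).

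On the lower side, 9 named genes had no UMI in any NK cell. Cd8b1, the CD8 β chain, stood at 442 and 447 CPM in T cells, which makes NK cells at least 61.7-fold lower (edgeR adjusted p = 0.00398). The other 8 were Slfn1, Igfbp4, St8sia1, Izumo1r, Als2cl, Ass1, Rapgef4 and Sh3bp5, lower by at least 28.1, 21.2, 16.0, 16.3, 14.8, 11.2, 8.25 and 7.88-fold. Among them are Slfn1, a Schlafen gene of resting T cells, and Ass1, an enzyme of arginine synthesis. Cd5, Cd8a and Ly6a had 1, 2 and 1 UMIs in NK cells, with 86.6-fold lower (counting interval 15.5 to 3428), 68.1-fold lower (counting interval 18.8 to 564) and 66.4-fold lower (counting interval 11.8 to 2631).

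Against all other cells, the named higher genes were Klra8, Klra4, Klra7, Eomes, Tcrg-C4, Cma1, Gzma, Cd160, Klra9, Il2rb, Prf1 and Xcl1, with log2 fold changes between 8.43 and 9.51. Tcrg-C4, a constant region of the T cell receptor γ locus, stood at 201 and 213 CPM in NK cells, 48.5 and 48.6 CPM in T cells and 0.475 and 0.145 CPM in all other cells (9.09 ± 0.44 (SE), edgeR adjusted p = 1.85e-05), from 6 and 8 NK cells. The named lower genes had no NK UMI: Aif1 (the macrophage protein IBA1), Ccr3, Mrc1 (the mannose receptor), Ifi207, Hpgd and Trib1. NK cells were lower by at least 31.9, 27.3, 27.1, 20, 20.1 and 16.9-fold.

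T cell transcripts in the NK cells were uneven. The T cells were chosen by Cd3e, Trac and Trbc2, so lower levels of their partner genes are not independent of the rule. Of 15 T cell markers tested, 12 were lower in NK cells than in T cells and none higher (median log2 fold change −4.42). Set against all other cells, 7 were higher and 2 lower (median 2.92). The 12 became 7, 5 and 8 without NK replicate 1, NK replicate 2 and T cell replicate 1. The 7 became 4 without NK replicate 2. Trac stood at 9.36 and 49.6 CPM in NK cells against 1363 and 1344 CPM in T cells, and Cd3d, Cd3g and Bcl11b at 0 and 9.92, 4.68 and 24.8 and 14.0 and 39.7 CPM against 258 and 267, 286 and 339.7 and 475 and 541 CPM. These genes of the T cell receptor complex and of T cell commitment were far lower in NK cells than in T cells. They were not absent: 2 of 22 and 7 of 28 NK cells held a UMI of Trac, Cd3d or Cd3g. Cd3g and Bcl11b were among the 7 markers higher than in all other cells.

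Of the T cell markers tested, 3 were not called against T cells: Trbc1, Trdc and Cd28. All 3 were called higher than in all other cells. Trbc1 is a constant region of the T cell receptor β locus at chr6:41538218-41539881, plus strand. It stood at 403 and 288 CPM in NK cells, 322 and 265 CPM in T cells and 1.4 and 2.29 CPM in all other cells, so NK and T cells overlapped (log2 fold change 0.11 ± 0.28 (SE), edgeR adjusted p = 0.875). Against all other cells it was higher (log2 fold change 7.33 ± 0.33 (SE), edgeR adjusted p = 1.35e-05). A Trbc1 UMI was found in 17 of 22 and 20 of 28 NK cells, and 15 and 13 NK cells held one with no UMI of Trac, Cd3d or Cd3g. The sign of the small difference to T cells is not fixed. It was −0.11 with T cells held to the limits of the NK rule and −0.20 without NK replicate 1. Trbc2, a gene of the T cell rule, was at 164 and 367 CPM in NK cells and 1894 and 2201 CPM in T cells, and Trdc did not pass against T cells (70.2 and 89.2 against 58.7 and 143 CPM, edgeR adjusted p = 0.477). An NK rule with no UMI of any of Cd3d, Cd3g, Trac, Trbc1 and Trbc2 would keep 3 and 4 cells.

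Markers of type 1 innate lymphoid cells, the tissue-resident relatives of NK cells, were then counted. Of 8 tested, edgeR called 0 higher and 2 lower (Il7r and Inpp4b) than in T cells, with 3 in either direction at an unadjusted p below 0.05, 2 by DESeq2 and a median log2 fold change of −0.49. Set beside all other cells, 4 were higher and 2 lower (median 1.00), and the 4 became 2 and 1 without NK replicate 1 and NK replicate 2. The 2 lower than in T cells became 1 without NK replicate 1, NK replicate 2 or T cell replicate 1, and the 2 lower than in all other cells became 1 without NK replicate 1. The 4 higher than in all other cells were Itga1, Cxcr6, Tnfsf10 and Il7r, and the 2 lower were Tmem176a and Tmem176b. All markers of the list summed to 492 and 615 CPM in NK cells against 1606 and 1761 CPM in T cells. The larger part of the T cell sum was Il7r, at the levels given above. Whether some of the NK cells are type 1 innate lymphoid cells was not tested. Cxcr6 was found in 1 of 22 and 4 of 28 NK cells, Itga1 (CD49a) in 3 of 22 and 2 of 28 and Cd200r1 in 2 of 22 and 1 of 28.

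The NK sums held some transcripts of other cells. Markers of dendritic cells summed to 3488 and 2647 CPM in NK cells, 12377 and 6399.9 CPM in T cells and 48902 and 52897 CPM in all other cells, so both NK sums were below the rest, and Clec10a was at 0 in both. Macrophage markers summed to 74.9 and 69.4 CPM in NK cells against 4283 and 2369.6 CPM in all other cells. B cell markers summed to 351 and 263 CPM against 1228 and 1333 CPM, with Cd79b and Ms4a1 at 0. Plasmacytoid markers summed to 379 and 154 against 240.0 and 268 CPM in all other cells, with Ly6d at 0. In replicate 1, Cox6a2, which was not tested, gave 276 of these 379 CPM, with 49 of its 59 UMIs in 1 cell. Monocyte and neutrophil markers summed to 267 and 397 against 1446 and 1509 CPM, with S100a8, S100a9, Camp and Fn1 at 0, and haemoglobins to 18.7 and 159 against 599.6 and 350.0 CPM. Against T cells, edgeR called 0 of 8 macrophage, 0 of 6 monocyte or neutrophil, 0 of 4 haemoglobin and 0 of 7 B cell genes (0, 2, 0 and 2 at an unadjusted p below 0.05, and 0, 0, 0 and 2 by DESeq2), and 1 of 4 plasmacytoid markers was lower (Ccr9, not called without NK replicate 1 or 2 or T cell replicate 1). Against all other cells, all 8 macrophage markers tested, 9 of 10 dendritic cell, 3 of 7 B cell, 2 of 4 plasmacytoid, 2 of 6 monocyte or neutrophil and 2 of 4 haemoglobin genes were lower. With the replicate as a block, Ngp, S100a8 and S100a9 were lower too (5 of 6 monocyte or neutrophil genes), as were Cd79b, Ly6d and Hbb-bs. The 8 macrophage calls became 5 without NK replicate 2. The 2 plasmacytoid calls became 0 and 1 without NK replicate 1 and NK replicate 2, and the 2 haemoglobin calls 0 without NK replicate 1 and 1 without NK replicate 2, either T cell replicate or other-cell replicate 1. The 2 monocyte or neutrophil calls became 5 without other-cell replicate 1. Ly6c2 was higher (log2 fold change 3.45, edgeR adjusted p = 0.000952).

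Of 10 dendritic cell markers tested, 6 were lower in NK cells than in T cells (median log2 fold change −1.99). The 6 became 0 without NK replicate 1, 0 without NK replicate 2 and 2 without T cell replicate 1, and 1 with up to 2 Clec9a UMIs allowed in NK cells. NK cells were held to no Clec9a UMI and T cells were not. With T cells held to the same limits on Clec9a, Cd79a, Siglech and C1qb, an alternative chosen after the values were seen, 1 of 9 was lower. H2-Aa, H2-Ab1, H2-Eb1 and Cd74, at log2 fold changes of −1.57, −1.69, −1.70 and −1.61 with all T cells, then stood at 0.24, 0.26, 0.27 and 0.37. By contrast, the 5 Ly49, 9 NKG2 and 12 T cell marker calls stayed at the same counts. The part of dendritic cell RNA in the other differences between NK and T cells was not tested. Within the NK cells, MHC class II UMIs (H2-Aa, H2-Ab1, H2-Eb1 and Cd74) came largely from 1 cell per replicate, with 448 of 641 and 173 of 461 of these UMIs. Those 2 cells held 23180 and 8769 UMIs in all, and whether they are doublets was not tested.

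**Figure D4:**
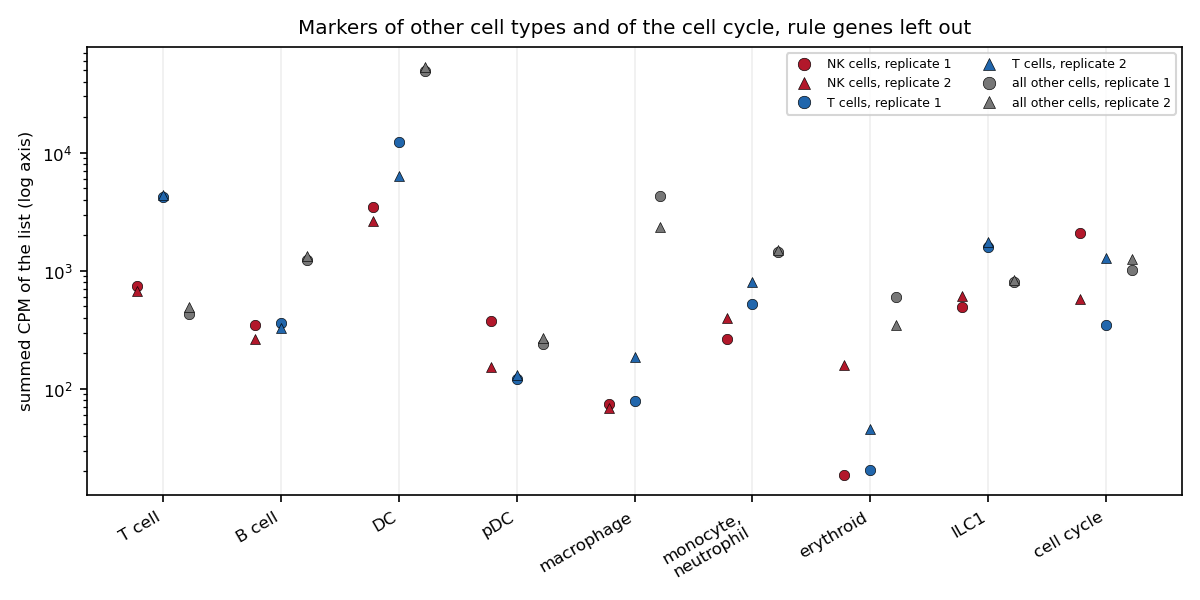
Summed CPM of the marker lists of other cell types and of the cell cycle on a logarithmic vertical axis. NK cells are red, T cells blue and all other cells grey, with a circle for replicate 1 and a triangle for replicate 2. Dendritic cell markers of NK cells (3488 and 2647 CPM) lie below those of T cells and all other cells, and macrophage markers of NK cells lie below 100 CPM.

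Cell cycle transcripts differed between the replicates. Of 12 cell cycle genes tested, edgeR called 0 against T cells (1 at an unadjusted p below 0.05, 0 by DESeq2, median log2 fold change 0.32) and 1, Mcm6, was higher than in all other cells (edgeR adjusted p = 0.0475, and 0.0709 with the replicate as a block). Mcm6 was not called without NK replicate 1, either T cell replicate or either other-cell replicate. The list summed to 2084 and 580.0 CPM in NK cells, 345 and 1275 CPM in T cells and 1027 and 1256 CPM in all other cells. A UMI of Mki67 or Top2a was found in 4 of 22 and 7 of 28 NK cells. Mki67, the proliferation marker, had 5 or more UMIs in 3 and 0 NK cells, and 65.4% and 33.3% of its UMIs came from 1 cell. Of 11 immediate early and heat shock genes, which rise when tissue is digested, edgeR called 0 against T cells (3 at an unadjusted p below 0.05, 0 by DESeq2, median log2 fold change −0.29), and 8 of 11 were lower and 1, Ier2, higher than in all other cells (median −1.98), where the 8 became 5 without NK replicate 2 and Ier2 was not called with any sum left out other than T cell replicate 2. Fos stood at 346 and 208 CPM in NK cells, 380.3 and 575 CPM in T cells and 1388 and 1781 CPM in all other cells. Mitochondrial transcripts made up a median of 5.54% and 6.05% of UMIs in NK cells, 8.64% and 8.72% in T cells and 5.50% and 5.40% in all other cells.

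NK cells were then divided by the maturation markers themselves. A Cd27 UMI without an Itgam (CD11b) UMI was found in 5 and 8 NK cells, Itgam without Cd27 in 7 and 10, both in 3 and 4 and neither in 7 and 6. As a list, the 10 maturation genes had 5 higher and 1 lower than in T cells (median log2 fold change 2.71) and 8 higher than in all other cells (median 4.56). The 5 became 2, 0, 3 and 3 without NK replicate 1, NK replicate 2, T cell replicate 1 and T cell replicate 2. Cd7 was at 1887 and 2162 CPM in NK cells against 112 and 313 CPM in T cells (3.01 ± 0.37 (SE), edgeR adjusted p = 0.00626), and the 1 lower gene was Thy1 (309 and 278 against 824 and 826 CPM, edgeR adjusted p = 0.00929), which was not called without NK replicate 1 or 2 or T cell replicate 1.

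The CD27-only cells (74010 and 76545 UMIs in sum) and the CD11b-only cells (53172 and 63969 UMIs) differed in effector genes. Of 1630 genes tested in a fit of these 4 sums, 3 were higher in CD27-only cells (0.184%) and 10 lower (0.613%). The median log2 fold change over all genes was −0.01. None of the 13 overlapped, which a call among so few sums nearly brings with it and which adds no support. Gzma stood at 838 and 39.2 CPM in CD27-only cells against 6357 and 7347 CPM in CD11b-only cells (log2 fold change −3.95 ± 0.74 (SE), edgeR adjusted p = 0.0294). Gzmb stood at 13.5 and 26.1 against 263 and 563 CPM (−4.26 ± 0.77 (SE), edgeR adjusted p = 0.0254), and Prf1 at 108 and 105 against 771 and 1016 CPM (−3.05 ± 0.50 (SE), edgeR adjusted p = 0.0254). All 3 effector genes were thus many times lower in CD27-only cells of both replicates. An Eomes UMI was found in 4 of 5 and 4 of 8 CD27-only cells and 6 of 7 and 9 of 10 CD11b-only cells. In replicate 2, a CD27-only cell held 11 Itga1 and 8 Cxcr6 UMIs, and another held 4 Itga1 and 4 Il7r UMIs. Neither of these cells held an Eomes or Gzma UMI. How much cells with markers of type 1 innate lymphoid cells add to the contrast was not tested. Zeb2 was at 135 and 91.4 against 677 and 782 CPM (−2.66 ± 0.52 (SE), edgeR adjusted p = 0.032).

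In the other direction, Tcf7 stood at 986 and 810.0 CPM in CD27-only cells against 132 and 78.2 CPM in CD11b-only cells (3.10 ± 0.53 (SE), edgeR adjusted p = 0.0254). Cd7, an early surface protein, stood at 2675 and 3540.4 against 771 and 250.1 CPM (2.62 ± 0.46 (SE), edgeR adjusted p = 0.0254), and Car2 at 1027 and 862 against 94.0 and 109 CPM (3.19 ± 0.51 (SE), edgeR adjusted p = 0.0254). Tcf7 and Zeb2 thus ran in opposite directions, as did Cd7 and the granzymes. Xcl1, at 1311 and 1424 against 470.2 and 250.1 CPM, did not pass (log2 fold change 1.93, edgeR adjusted p = 0.064). Neither did Klra8 (635 and 1359 against 1128 and 1532 CPM, edgeR adjusted p = 0.774), Klra4 (edgeR adjusted p = 0.747), Eomes (905 and 444 against 639 and 703 CPM, edgeR adjusted p = 0.994) or Tbx21 (edgeR adjusted p = 0.544).

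Neat1, a nuclear non-coding RNA, was lower in CD27-only cells (13.5 and 39.2 against 357 and 422 CPM, −3.79 ± 0.71 (SE), edgeR adjusted p = 0.0294). Tbc1d4 and Trps1 were called lower as well (edgeR adjusted p = 0.032 and 0.032), but in replicate 1 a single CD11b-only cell gave 91.3% and 96.7% of their UMIs. The remaining calls were the MHC class II genes H2-Aa, H2-Ab1 and Cd74, with H2-Aa at 135 and 222 against 2163 and 1079 CPM (edgeR adjusted p = 0.0254). Both NK cells rich in MHC class II were CD11b-only cells. Without them, chosen after the values were seen, 16 genes passed, 8 of them among the 13, and H2-Aa, H2-Ab1 and Cd74 did not (edgeR adjusted p = 0.506, 0.592 and 0.478). The 8 were Gzma, Gzmb, Prf1, Zeb2, Tcf7, Cd7, Car2 and Neat1, and S1pr5 and Klf2 then passed as well (edgeR adjusted p = 0.0222 and 0.019, and 0.0993 and 0.0967 with all cells). With the replicate as a block, 0 of the 1630 genes passed (156 at an unadjusted p below 0.05), against 13 without it and 17 by DESeq2. The count was 44 and 52 without CD11b replicate 1 and 2, and 23 and 44 without CD27 replicate 1 and 2.

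**Figure D5:**
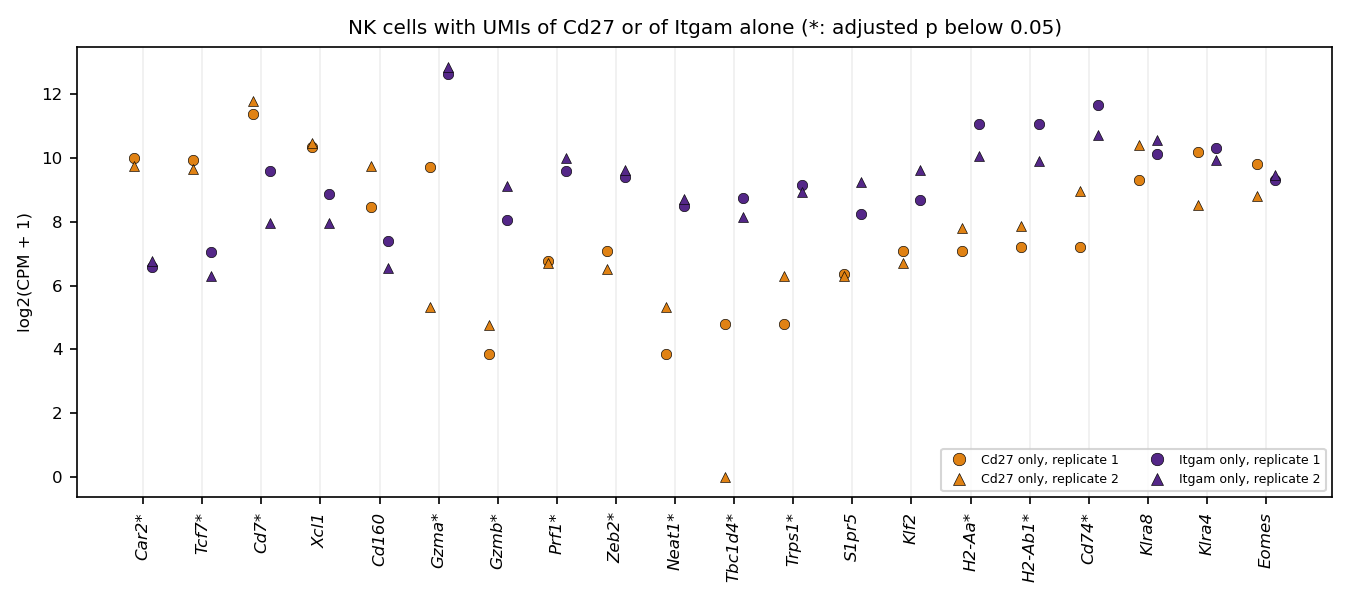
Levels of 20 genes as log2(CPM + 1) on the vertical axis. NK cells with Cd27 and no Itgam UMI are set beside NK cells with Itgam and no Cd27 UMI. A circle stands for replicate 1, a triangle for replicate 2, and an asterisk marks an adjusted p below 0.05. Gzma, Gzmb, Prf1 and Zeb2 lie lower and Tcf7, Cd7 and Car2 higher in the CD27-only cells, and Klra8, Klra4 and Eomes lie together.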

How the data were processed

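Spleen cells of 2 wild-type samples were enriched with CD11c beads, tagged and captured on the BD Rhapsody system. Per the file headers, the authors processed the reads with the BD Rhapsody pipeline 1.12.1 (GRCm38 with PhiX, GENCODE vM19, introns counted) and deposited 1 table of UMI counts per cell and gene for each sample, with 27032 genes, corrected by recursive substitution error correction (RSEC) and not normalized. The submitters' processing notes name R 4.2.3 and Seurat 4.3.0.1. The run's tags also mark other mice, not analysed here. The labels put both samples in 1 group, and T cells and all other cells of the same samples served as comparison.

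From the deposited counts, cells were chosen by the UMI limits given above and UMIs were summed per sample and group. NK, T and other sums (6 in 1 fit) were tested in edgeR 4.0.16 (R 4.3.3) with TMM scaling, filterByExpr, the quasi-likelihood F test and Benjamini-Hochberg adjustment over all genes tested, with 0.05 as threshold; the SE is the log2 fold change over the square root of F. The CD27 and CD11b split was fitted alone on 4 sums. DESeq2 1.42.0, relative log expression scaling (RLE), no filter, a replicate block, other cell rules, the methods' filter on cells and leaving out each sum served as alternatives. The text names list genes and, ranked by fold change, called genes whose 2 samples moved alike and whose higher group reached 50 CPM in each sample (12 each way against T cells, 12 up and 6 down against all other cells, 5 each way in the split). Against a group with no UMI, the fold is a bound computed from 3 counts over that group. The members and lists were chosen with earlier results of these data known.

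Summed NK, T and other UMIs came to 415291, 1913829 and 87762024. NK replicates differed beyond counting noise (chi-square 3.02 per gene over 4270 genes), so they were kept as 2. Tested on simulated data for NK against T cells, the fit recovered 114 of 190 tested genes changed 4-fold with 5 false calls and 0 of 185 changed 2-fold. For the split it recovered 89 of 163 with 5 false calls and 3 of 164. Every simulated sum followed the profile pooled over all sums, which for NK against T cells is mostly that of all other cells. The simulated sums were not paired. Recovery of genes particular to NK or T cells may therefore differ. Sums with the same replicate number come from the same sample and are thus paired, although their deviations did not correlate (−0.08 to 0.01). No doublet caller was run, and free RNA was not removed. Gene positions are from GENCODE M21, promoters from RefSeq (GRCm38.p6), and intervals and floors cover counting error only.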

Additional observations from a re-analysis of the deposited data

How the results depend on the processing

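With few cells, the number of calls moved more than the direction of the named genes. For NK against T cells (411 called), the count was 1004 by DESeq2, 941 with no filter on low counts, 153 with no UMI of Cd3d, Cd3g, Trac, Trbc1 and Trbc2 in NK cells (which leaves 3 and 4 cells), and 45 to 375 leaving out 1 sum. The count stayed within 1.5 times the main one, at 353 to 504, under RLE scaling, the replicate block (392), stricter and looser NK rules, the methods' filter on cells and the limits chosen after seeing the data. For NK against all other cells (2079 called), the rule without T cell UMIs gave 419 and leaving out 1 sum 1033 to 1998, and the block gave 1784. For the CD27 and CD11b split (13 called), the block gave 0, no filter 48 and leaving out 1 sum 23 to 52. The mean NK share of the 2 replicates (0.786%) was 0.110% under the rule without T cell UMIs, and 0.665% to 0.908% leaving out 1 sample. The share of higher calls, 50.1% and 43.4%, fell to 23.5% and 29.4% under that rule, where median fold changes moved by −0.60, to 38.5% against T cells without T cell replicate 2 and to 34.3% against all other cells with no filter, and reached 66.7% against T cells without NK replicate 2. The cause was not tested.

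Signs turned for Trbc1 against T cells: −0.11 with T cells held to the NK limits, −15.02 under the rule without T cell UMIs (which fixes this sign, since it allows no Trbc1 UMI), −0.21 with no UMI of Cd3d, Cd3g and Trac, −0.0053 with the methods' filter, and −0.20 to 0.31 leaving out 1 sum. With T cells held to the NK limits, the MHC class II genes lower than in T cells turned as well, to 0.24 (H2-Aa), 0.26 (H2-Ab1), 0.27 (H2-Eb1) and 0.37 (Cd74). The rule without T cell UMIs turned Id2 (−0.78) and Kit (−1.44) against T cells. Against all other cells, signs turned under the rule without T cell UMIs for Ccl4 (−0.42), Itga4 (−0.040), Trbc1 (−8.70), Itgax (−1.19), Tyrobp (−0.17), Rab27a (−0.17), Bach2 (−0.50), Il2rg (−0.34), Il2ra (−7.94), Cxcr6 (−6.28), Cd3g (−7.03) and Bcl11b (−7.92). Cd3g also turned with no UMI of Cd3d, Cd3g and Trac (−7.04). For Trbc1 and Cd3g these rules fix the sign. Itgax, near 0 against all other cells, was −0.033 with no UMI of Cd3d, Cd3g and Trac, −0.14 with no filter, −0.043 with the methods' filter, −0.018 without the cells rich in MHC class II, and −0.089 to 0.050 leaving out 1 sum. In the split, leaving out 1 sum gave Klra8 −1.0 to 0.038 and Klra4 −1.62 to 0.12. The other genes named by rank or called in a list kept their direction under the alternatives run. Of their values, 246, 239 and 14 against T cells, against all other cells and in the split were no longer past the threshold, against 1343, 2236 and 89 on the same side. The replicate block also ended the calls of Zbtb46 against T cells (edgeR adjusted p = 0.059) and of Unc13d (0.0614) and Itgb7 (0.0685) against all other cells. It added Fasl, Fcgr3, Cst3 and Ly6c2 against T cells (0.015, 0.0378, 0.0228 and 0.0285) and Klf2 against all other cells (0.0296). Apart from these, those given with their results and the split, it changed no call among the genes of the lists or those named by rank. Where 1 sum was left out, the lone sum is assumed to vary like the other groups. Depth limits the groups to 22 and 28 NK cells.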
